A study of Rattus norvegicus with 93 samples.

Results

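A set of 8 genes of neurotrophic signalling were followed in the rostromedial tegmental nucleus (RMTg) of outbred laboratory rats: the ligands Bdnf and Ntf3, the secreted peptide precursor Vgf, the receptors Ntrk2, Ntrk3 and Ngfr, and the receptor pair Ret and Gfra1. They were chosen by symbol as 8 of the 38354 genes in the deposited table. The RMTg is an inhibitory brainstem nucleus that projects to midbrain dopamine neurons, and its polyadenylated RNA was sequenced as part of a genetic study of addiction and avoidance learning. The labels give 1 group of 93 samples, with no treatment, sex, age, genotype or behaviour, and 92 of them have a column. The libraries used here are the 49 in which Nif3l1 held under 20% of the counts and LOC120093067 with Zfp532 held under 10%. Each sample has its own identifier, and since the labels do not say that each is 1 animal, p-values measure the spread between these samples. Sorted by number, the identifiers form runs, and neighbours more than 50000 apart were put in different runs, called identifier series. The 49 libraries came from series E (7 libraries), F (7), D (12), B (7) and C (16). The labels do not say what separates these series.

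Neurotrophins are secreted proteins that keep neurons alive and adjust their synapses. BDNF binds TrkB, the tyrosine kinase receptor encoded by Ntrk2, and neurotrophin 3, the product of Ntf3, binds TrkC, encoded by Ntrk3. Ngfr encodes p75, a receptor shared by the neurotrophins. Ret is the signalling receptor of the GDNF family and needs a co-receptor such as GFRα1, the product of Gfra1, to bind ligand. In the rat midbrain, dopamine neurons are known to express Ret and Gfra1, and part of them Bdnf and Ntf3. Vgf and Bdnf are known as genes that neuronal activity and neurotrophins can switch on through CREB, a transcription factor that binds the cAMP response element (CRE).

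Promoter windows were printed for these last 2 genes because their levels differed between series in which activity genes also differed. The RefSeq promoter table for assembly GRCr8 held windows for 5 of the 8 genes (Bdnf, Ntf3, Vgf, Ret and Gfra1), and 12 windows of 250 bases before a start site were searched on both strands. The motifs, chosen after seeing the data, were the CRE TGACGTCA, the shorter element TGACG, which also lies within the CRE, and the element AAAGGTCA that receptors of the Nr4a family bind. The capitals mark the full CRE in Vgf (chr12:25277021-25277270, minus strand) and the shorter element, read on the other strand, in window 4 of 6 of Bdnf (chr3:116637608-116637857, plus strand).
Vgf: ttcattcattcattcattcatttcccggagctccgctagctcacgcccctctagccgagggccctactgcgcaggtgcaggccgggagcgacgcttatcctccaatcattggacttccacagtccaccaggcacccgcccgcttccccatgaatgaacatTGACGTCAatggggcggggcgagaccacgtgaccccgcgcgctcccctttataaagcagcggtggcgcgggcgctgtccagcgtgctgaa
Bdnf: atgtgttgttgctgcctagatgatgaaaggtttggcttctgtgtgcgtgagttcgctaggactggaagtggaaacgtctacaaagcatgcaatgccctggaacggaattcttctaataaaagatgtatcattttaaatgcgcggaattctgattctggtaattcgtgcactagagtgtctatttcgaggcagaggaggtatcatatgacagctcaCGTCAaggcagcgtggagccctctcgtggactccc
The CRE of Vgf lay 90 bases before the start site of its window (position 25277020). The shorter element of Bdnf lay 35 bases before that of window 4 (position 116637858). Neither start site is the position that the deposited table gives the gene. The full CRE was in 1.59% of all 33465 promoter windows, the shorter element in 18.2% and the Nr4a element in 1.24%. For Bdnf 6 windows were searched, and 1 match to the shorter element among them is near its share of all windows. The other 10 windows held none of the 3 motifs, and neither printed window held the Nr4a element. A match describes letters in a window and not a bound site. Ntrk2, Ntrk3 and Ngfr are named without a window.

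The table gives each gene a position that equals an end of its RefSeq gene in GRCr8 for all 8. These are chromosome 3 position 116619633 for Bdnf, chromosome 4 position 160670623 for Ntf3 and chromosome 12 position 25281803 for Vgf. Ntrk2 is at chromosome 17 position 5875899, Ntrk3 at chromosome 1 position 141913575 and Ngfr at chromosome 10 position 81030305. Ret is at chromosome 4 position 153040556 and Gfra1 at chromosome 1 position 267557037.

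Totals per library were 9.55 to 50.2 M estimated counts (M, 1000000; median 19.2 M). All 11 RMTg inhibitory markers passed the filter on low values (CPM, counts per 1000000, of at least 1 in 20% of libraries), with a summed level of 724 to 1208 CPM. All 9 dopaminergic markers passed too, and their sum differed more, from 238 to 1766 CPM. Serotonergic markers summed to 156 to 523 CPM. Of 3 cholinergic markers, Chat and Slc18a3 did not pass, and the 3 together reached 0.634 to 6.18 CPM. The filter left 18749 genes, among them 8 of the 8 neurotrophic genes. Since CPM ignores how long a transcript is, a level is compared between libraries and not between genes.

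All 8 genes were detected, Ntf3 and Ngfr at few counts. Bdnf had 3.58 CPM in the lowest library, a median of 7.23 and 18.6 in the highest, with a mean of 7.61 ± 2.80 (SD, n = 49). Ntf3 had a median of 1.10 CPM and a mean of 1.37 ± 1.17 (SD, n = 49), with a highest value of 7.26. It had no count in 2 libraries, where a count of 0 allows up to 0.145 CPM in series C library 3 and 0.0919 CPM in series E library 6. These limits, from 3 counts, cover counting error only. Vgf ranged from 24.5 to 93.7 CPM, with a mean of 52.5 ± 17.4 (SD, n = 49). The ligands and Vgf therefore spread widely over the libraries.

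The Trk receptors had the narrowest spread of the 8. Ntrk2 ranged from 203 to 369 CPM around a mean of 296 ± 29.8 (SD, n = 49), a coefficient of variation of 10.1%. Ntrk3 ranged from 94.4 to 164 CPM around 119 ± 12.6 (SD, n = 49), a coefficient of variation of 10.5%. After the trend of SD on expression was removed, the SD of Ntrk2 lay at percentile 3.14 and that of Ntrk3 at percentile 4.77 of all genes that passed. Ngfr, by contrast, ranged from 0.530 to 9.75 CPM around 4.09 ± 2.01 (SD, n = 49) and lay at percentile 97.4, with a coefficient of variation of 49.2% where counting error alone would give 11.7%.

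Ret spread as widely among the receptors of the GDNF family. It had 20.2 CPM in the lowest library, a median of 42.4 and 113 in the highest, with a mean of 45.96 ± 18.4 (SD, n = 49) and a residual SD at percentile 96.98. Gfra1 ranged from 10.7 to 32.2 CPM around 17.6 ± 3.87 (SD, n = 49), at percentile 61.5. Bdnf, Ntf3 and Vgf lay at percentiles 89.2, 96.6 and 95.96.

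**Figure D1:**
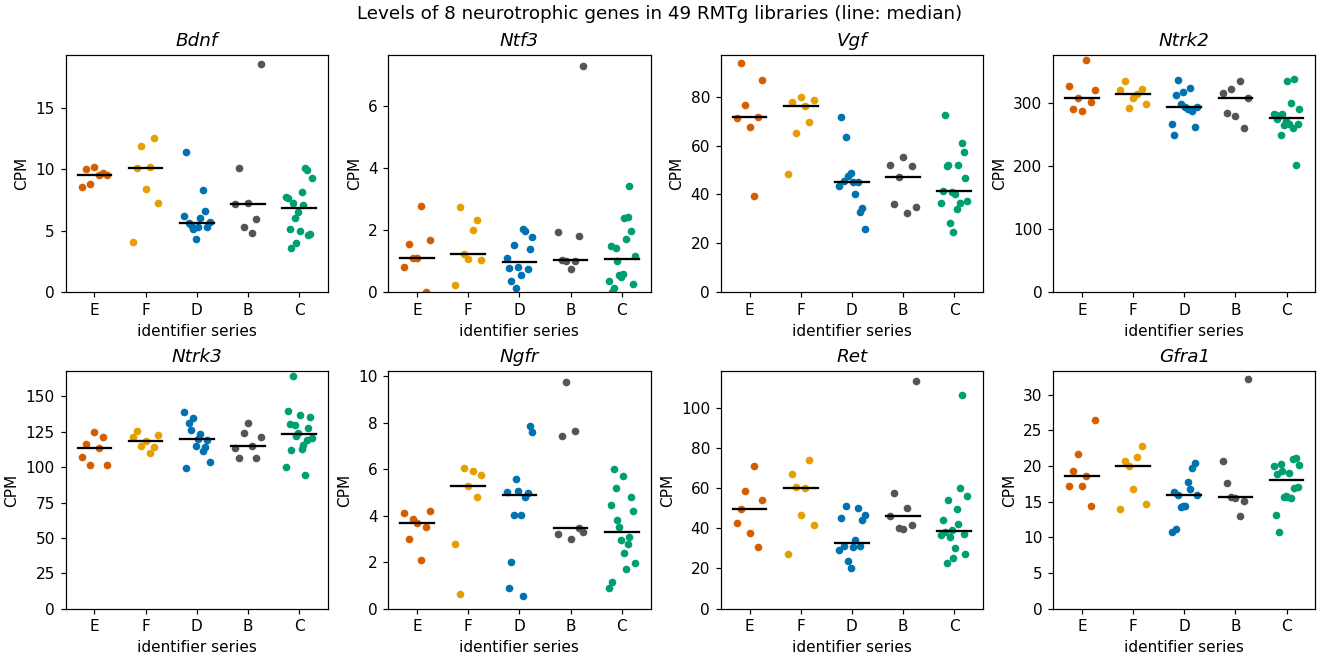
CPM of each gene (y axes, from 0) in 49 libraries by identifier series (x axes, in the order E, F, D, B, C); each point is 1 library and each line a median. Vgf medians are 71.5 and 76.3 CPM in series E and F, against 45.1 in series D, and 1 library of series B is the highest in Bdnf, Ntf3, Ret and Gfra1.

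Of the 8 genes, 1 differed between the identifier series. Vgf passed limma's F test over the 5 series (adjusted p = 0.0016), a test that 1.71% of all genes passed. With Xist and Ddx3y in the fit this call was lost (adjusted p = 0.11), and over the other 10 alternatives it was kept. Vgf had 39.4 CPM in the lowest library of series E, a median of 71.5 and 93.7 in the highest. In series F the lowest, median and highest were 48.2, 76.3 and 80.05 CPM. In series D they were 25.9, 45.1 and 71.9 CPM. Series B and C had medians of 47.02 and 41.3 CPM. Series E and F overlapped D, but 6 of 7 libraries of E and 7 of 7 of F lay above the median of D.

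Set against series D, the mean of series E and F was higher in 2 of the 8 genes, Vgf and Bdnf, and lower in 0. Among all genes, 1.43% were called higher and 2.49% lower, and the median difference was 0.00484 on the log2 scale. Vgf was higher by 0.67 ± 0.14 (SE, log2 of CPM plus 1, limma adjusted p = 0.0023). Bdnf was higher by 0.51 ± 0.15 (SE, limma adjusted p = 0.044). Bdnf had a lowest, median and highest value of 8.58, 9.54 and 10.2 CPM in series E and of 4.13, 10.1 and 12.6 CPM in series F. In series D it had 4.31, 5.65 and 11.4 CPM. All 7 libraries of E and 6 of 7 of F lay above the median of D, and both series overlapped it.

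Activity genes separated the same series. Fos, an immediate early gene that neurons switch on within minutes of firing, had medians of 167 CPM in series E and 194 in series F, against 8.03 CPM in series D. All 9 immediate early genes that passed the filter were called higher in E and F than in D, by 1.22 (Arc) to 4.25 (Fos) on the log2 scale. What separates these series was not tested, and the identifiers are the only label of it. Libraries of E and F were also deeper, with median totals of 28.2 and 24.997 M against 13.8 M in D. Xist and Ddx3y are the 2 genes used here as covariates for sex. Xist was above Ddx3y in all 7, 7 and 12 libraries of E, F and D. It was above in 5 of 7 libraries of B and in 6 of 16 of C, so the 5 series were unlike in this. The call of Vgf by limma's F test over the 5 series was lost with both genes in the fit (adjusted p = 0.11).

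Markers of 3 other lists were called in the same comparison. Gad1, a GABA-synthesising enzyme, was higher in E and F by 0.31 ± 0.09 (SE, limma adjusted p = 0.034), and Pnoc, the prepronociceptin gene, by 0.47 ± 0.10 (adjusted p = 0.0049), as 2 of the 11 RMTg inhibitory markers. Of 7 microglial markers Tmem119 was higher by 0.45 ± 0.12 (adjusted p = 0.028), and of 9 astrocyte markers Sox9 was lower (-0.40 ± 0.11, adjusted p = 0.030). The median difference was -0.067 over the 7 microglial, 0.040 over the 9 astrocyte and 0.019 over the 11 inhibitory markers. These calls are therefore of single markers and not of their lists. The part of these markers in the differences of Vgf and Bdnf was not tested.

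Of the 9 dopaminergic markers 0 were called, with a median difference of 0.35. Their score, described with the dopaminergic results, had a lowest, median and highest value of -1.59, 0.32 and 1.34 in E and of -1.76, 0.36 and 1.65 in F, against -1.74, -0.47 and 0.57 in D, so the 3 series overlapped. With that score in the fit, the difference of Vgf was 0.64 (adjusted p = 0.0094), while that of Bdnf was 0.31 and lost its call (adjusted p = 0.27). The call of Bdnf was also lost with Xist and Ddx3y in the fit (adjusted p = 0.21), with the log10 total (0.082) and with no filter on low values (0.087).

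The other 6 genes were not called in this comparison. Ret differed by 0.49 ± 0.18 (SE, adjusted p = 0.11), with medians of 49.5 CPM in E and 60.2 in F, against 32.8 in D. Gfra1 differed by 0.26 ± 0.11 (SE, adjusted p = 0.18). The differences of Ntf3, Ntrk2, Ntrk3 and Ngfr were 0.17 ± 0.22, 0.09 ± 0.06, -0.05 ± 0.06 and -0.02 ± 0.24 (SE), with adjusted p of 0.39 or more. Of the 14 processing and adaptor genes, Plat, which encodes tissue plasminogen activator, a protease in the pathway that cleaves proBDNF, was called higher in E and F by 0.64 ± 0.11 (SE, adjusted p = 2.07e-04). None of the 3 other ligands and 10 other receptors tested was called.

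Within series, no gene of the 8 was called for a slope on the activity score, which is the mean z-score of the 9 immediate early genes, in SD units, fitted with series as a covariate. The share of all genes called was 0.0854% rising and 0.00534% falling. Vgf had a slope of 0.37 ± 0.17 (SE, log2 units per SD, adjusted p = 0.55) and Bdnf one of 0.37 ± 0.19 (adjusted p = 0.61). Pearson's r of Vgf with the score was 0.79 within series E and 0.95 within F, against -0.06 within D, 0.09 within B and -0.03 within C. For Bdnf it was 0.20 within E and 0.80 within F, against 0.47 within D, -0.17 within B and -0.03 within C. Series E and F held 7 libraries each, so 1 library can weigh heavily in such an r. Series F library 1 had a score of 0.28, against 1.57 in the next lowest of F. It also had the lowest Bdnf (4.13 CPM) and Vgf (48.2 CPM) of its series. Series E library 5 had the lowest score (0.83) and the lowest Vgf (39.4 CPM) of E. How far these r rest on those libraries was not tested. The scores of E and F (0.28 to 1.996) lay apart from those of the other series (-1.06 to -0.19), so no r over all libraries is given. The series term takes that gap out of the slopes, which then rest on the smaller spread within series. A missing call there does not show that a gene is unrelated to the score.

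**Figure D2:**
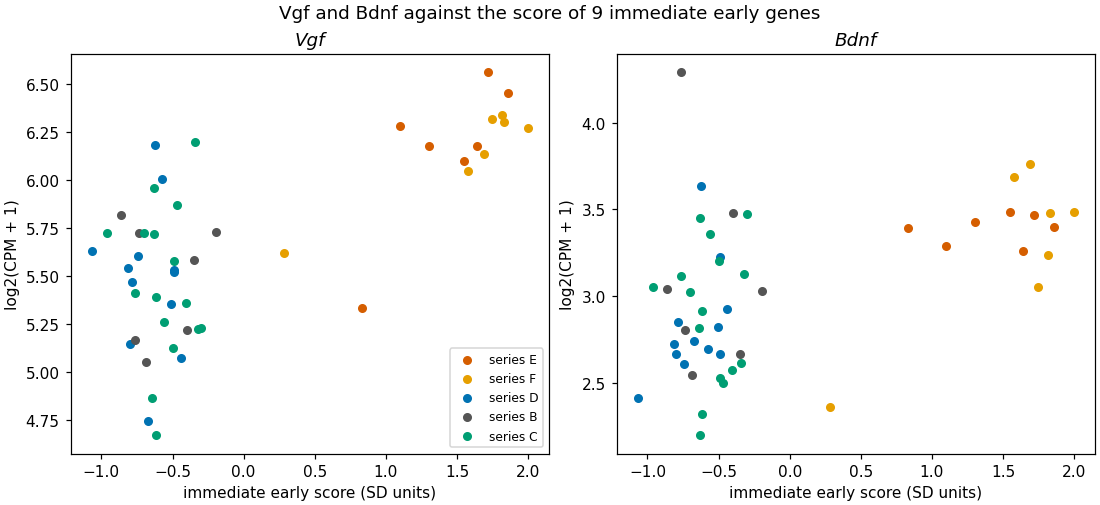
Log2 of CPM plus 1 of Vgf and Bdnf (y axes) against the score of 9 immediate early genes in SD units (x axes); each point is 1 of 49 libraries, coloured by identifier series. Libraries of series E and F stand apart on the x axis, from 0.28 to 1.996, and their Vgf medians are 71.5 and 76.3 CPM against 45.1 CPM in series D.

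Of the 8 genes, 4, namely Ret, Ntf3, Gfra1 and Bdnf, rose with the markers of dopamine neurons, and the other 4 were not called. The dopaminergic score was the mean z-score of 9 markers (Th, Slc6a3, Drd2, Pitx3, Nr4a2, En1, Foxa2, Aldh1a1 and Slc10a4). Among all genes, 0.939% were called rising and 0.742% falling on it, against 4 and 0 of these 8. In such bulk samples, fewer cells of a type and less RNA per cell cannot be told apart. The RMTg lies beside dopaminergic cell groups, and how much of them each dissection held was not measured.

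Ret, the signalling receptor, had the steepest relation after Ntf3. Its slope was 0.43 ± 0.04 (SE, log2 units per SD of the score, limma adjusted p = 3.9e-11). Pearson's r was 0.85 and Spearman's rho 0.86 over 49 libraries centred by series, each with a permutation p of 1e-05, the smallest that 100000 permutations within series can give. Within each of the 5 series r lay between 0.61 and 0.98. With the 2 libraries of most extreme score left out r was 0.80. Ret also rose with each of the 9 markers taken singly, with r from 0.40 to 0.88.

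Ntf3 followed with a slope of 0.51 ± 0.05 (SE, adjusted p = 3.8e-09), an r of 0.81 and a rho of 0.79 (permutation p = 1e-05 for both). Its r lay between 0.68 and 0.94 within the series and was 0.73 without the 2 farthest libraries. It rose with 8 of the 9 markers. A slope on log2 of CPM plus 1 understates the change of a gene as low as Ntf3, and with 0.5 CPM added in place of 1 the slope was 0.66.

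Gfra1, the co-receptor of Ret, had a slope of 0.22 ± 0.03 (SE, adjusted p = 4.0e-06), with r of 0.75 and rho of 0.71 (permutation p = 1e-05 for both). Its r lay between 0.43 and 0.96 within series and was 0.65 without the 2 farthest libraries. Gfra1 rose with 8 of the 9 markers.

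Bdnf had the loosest relation of the 4, with a slope of 0.28 ± 0.05 (SE, adjusted p = 1.7e-04), r of 0.66 (permutation p = 2e-05) and rho of 0.55 (permutation p = 9e-05). Its r was -0.20 within series E, 0.93 within F and 0.94 within B, so the relation was not seen in every series. Without the 2 farthest libraries r was 0.47 and the call was lost (adjusted p = 0.12). It rose with 7 of the 9 markers.

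One library, series B library 7, was the highest of the 49 in Th (1067 CPM, against 611 in the next), in Slc6a3 and in all 4 genes. It had 113 CPM of Ret, 7.26 of Ntf3, 32.2 of Gfra1 and 18.6 of Bdnf. In Vgf it ranked 42nd, in Ntrk2 17th, in Ntrk3 22nd and in Ngfr 32nd. Without it, the 4 slopes were 0.39 (Ret), 0.42 (Ntf3), 0.18 (Gfra1) and 0.21 (Bdnf), and all 4 calls were kept (largest adjusted p = 0.015, Bdnf).

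Vgf, Ntrk2, Ntrk3 and Ngfr had slopes of 0.03 ± 0.06, 0.02 ± 0.02, -0.03 ± 0.02 and -0.10 ± 0.10 (SE) on the same score, with adjusted p of 0.51 or more. Of the other pathway genes, Gfra2, the co-receptor through which Ret binds neurturin, rose with the score (slope 0.13 ± 0.03, SE, adjusted p = 0.012), as 1 of 10 receptors. Pcsk2, a prohormone convertase, rose as 1 of 14 processing and adaptor genes (slope 0.14 ± 0.04, SE, adjusted p = 0.037). None of the 3 other ligands tested (Nrtn, Pspn and Manf) was called. Gdnf, the main ligand of Ret with Gfra1, did not pass the filter, with a median of 0.0809 CPM and a highest value of 0.730 CPM, and neither did Ntf4, Artn or Cdnf.

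**Figure D3:**
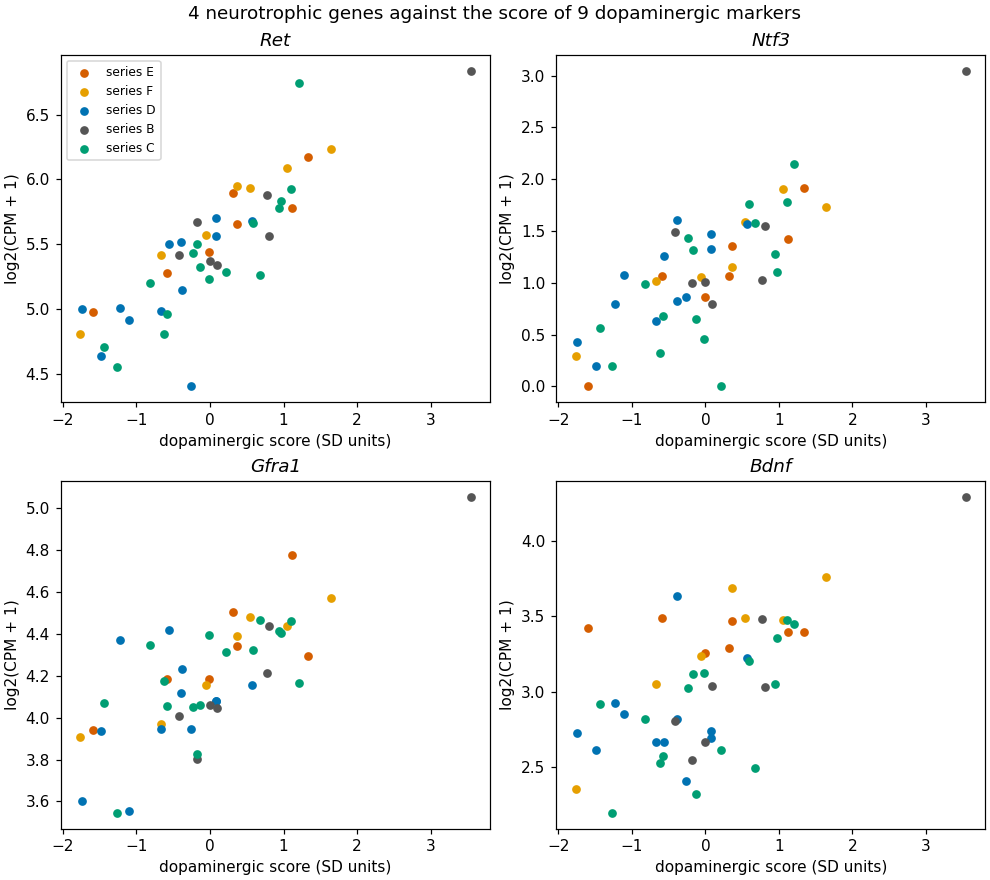
Log2 of CPM plus 1 of Ret, Ntf3, Gfra1 and Bdnf (y axes) against the score of 9 dopaminergic markers in SD units (x axes); each point is 1 of 49 libraries, coloured by identifier series. The point at the far right is series B library 7, the highest in all 4 genes, and r over libraries centred by series is 0.85, 0.81, 0.75 and 0.66.

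The same 4 genes varied together. Of 28 pairs among the 8 genes, 6 were called, all positive, and these were the 6 pairs of Ret, Ntf3, Gfra1 and Bdnf. The adjusted p is the larger of limma's slope fits in both directions over all genes. Among all genes, 8.33% rose and 12.7% fell with Ret, 2.53% and 5.48% with Ntf3, 0.736% and 0.304% with Gfra1, and 5.56% and 7.93% with Bdnf.

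Ntf3 and Ret were the closest pair, with r of 0.81 and rho of 0.77 (permutation p = 1e-05 for both; adjusted p = 1.3e-08), and r from 0.65 to 0.94 within the 5 series. Bdnf and Ret had r of 0.73 and rho of 0.64 (permutation p = 1e-05 for both; adjusted p = 5.2e-06). This pair had r of -0.26 within series E but 0.97 within F, against 0.53 within D. Bdnf and Ntf3, both neurotrophins, had r of 0.61 (permutation p = 4e-05) and rho of 0.53 (permutation p = 3.2e-04; adjusted p = 0.0014).

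The pairs with Gfra1 were looser. Ret and Gfra1, receptor and co-receptor, had r of 0.60 (permutation p = 3e-05) and rho of 0.60 (permutation p = 2e-05; adjusted p = 0.0039), positive in 5 of 5 series. Ntf3 and Gfra1 had r of 0.59 and rho of 0.54 (permutation p = 8e-05 and 1.3e-04; adjusted p = 0.0056). Bdnf and Gfra1 had r of 0.57 and rho of 0.45 (permutation p = 1.7e-04 and 0.0019; adjusted p = 0.012). Without series B library 7 the pairs Ntf3 with Gfra1 (adjusted p = 0.057) and Bdnf with Gfra1 (adjusted p = 0.082) lost their calls, which leaves 4. With the 2 libraries most extreme in the gene that the slope was fitted on left out, all 3 pairs with Gfra1 lost theirs. Without the 2 farthest in Ret, r of Ret and Gfra1 was still 0.59. The limma adjusted p of this pair, 0.14, is the larger of both directions, and each direction leaves out its own 2 libraries.

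In the 32 libraries set aside because LOC120093067 and Zfp532 held 10% or more of their counts, 0 of these 6 pairs were called, with r from -0.23 to 0.59 and adjusted p from 0.080 to 0.37.

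With the dopaminergic score in the fit of the 49 libraries, 1 of the 6 pairs was still called. Bdnf and Ret then had r of 0.42 (adjusted p = 0.028). Ntf3 and Ret had r of 0.38 (adjusted p = 0.29), Bdnf and Ntf3 0.16, Bdnf and Gfra1 0.15, Ntf3 and Gfra1 -0.06, and Ret and Gfra1 -0.11. The 22 other pairs had r between -0.29 and 0.18, with adjusted p of 0.32 or more. In the 49 libraries neither ligand was called with its own Trk receptor: r was -0.01 for Bdnf with Ntrk2 and -0.17 for Ntf3 with Ntrk3. In the 32 libraries set aside, Bdnf with Ntrk2 was called at r of 0.59 (adjusted p = 0.023).

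**Figure D4:**
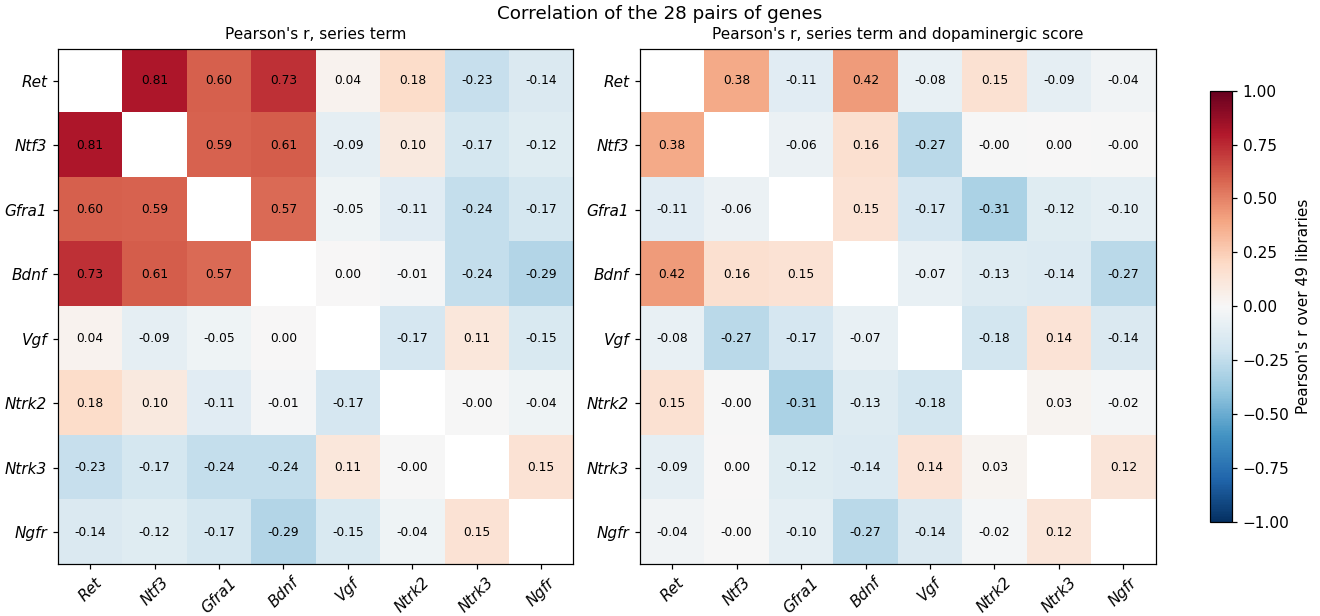
Pearson's r of each pair of the 8 genes over 49 libraries (rows and columns are genes, colour and number are r), with a series term on the left and with the dopaminergic score added on the right. On the left the 6 pairs of Ret, Ntf3, Gfra1 and Bdnf lie between 0.57 and 0.81; on the right they lie between -0.11 and 0.42.

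The whole table was searched for the genes most like each of the 4. The measure was r over the 49 libraries centred by series, for genes called with 1 sign in each of the 5 series. For Ret they were Tmem255a (r 0.93), Nr4a2 (0.88), a transcription factor of dopamine neurons, Foxa1 (0.87), Slc18a2 (0.87), the vesicular monoamine transporter, and Cntnap4 (0.85). For Ntf3 they were Slc18a2 (0.85), Ret (0.81), Foxa1 (0.79) and Th (0.79), the rate-limiting enzyme of dopamine synthesis. For Gfra1 they were Drd2 (0.76), the D2 receptor, Chrna6 (0.71), Slc6a3 (0.71), the dopamine transporter, Mc3r (0.70) and Th (0.70). For Bdnf they were Serpinb1b (0.81), Tmem255a (0.79), Slc18a2 (0.72) and Nts (0.72), the neurotensin precursor. The most negative were Knop1 (-0.73) and Kcna1 (-0.72) for Ret, Usf3 (-0.65) for Ntf3, Nxpe1 (-0.62) and Atxn1 (-0.56) for Gfra1, and Jakmip3 (-0.67) and Fnbp1 (-0.65) for Bdnf.

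Gfra2 was the 1 of the 10 other receptors that was called with Ret (r 0.73), with Ntf3 (0.59) and with Bdnf (0.54). Pcsk1, a prohormone convertase, was called with the same 3 genes (r 0.43, 0.42 and 0.49). Of the 14 processing and adaptor genes, 4 rose with Ret, 2 with Ntf3 and 2 with Bdnf, with which 1 also fell. Foxp1 was the 1 of the 11 RMTg inhibitory markers called with Ret, Ntf3 or Bdnf, and it fell with each. Among all genes, 8.33% rose and 12.7% fell with Ret, 2.53% and 5.48% with Ntf3, and 5.56% and 7.93% with Bdnf. Beside these shares, 1 of 10 or 1 of 11 is not a result about a list.

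Ntrk2 rose with astrocyte markers, and so did Ret. Ntrk2 is known to be expressed by both neurons and astrocytes, in astrocytes mainly as a truncated form that gene-level counts do not separate. On the score of 9 astrocyte markers its slope was 0.08 ± 0.02 (SE, limma adjusted p = 0.0018), with r of 0.60 (permutation p = 3e-05) and rho of 0.45 (permutation p = 0.0028). Its r was 0.74 within series E but -0.64 within F, against 0.28 within D, 0.63 within B and 0.76 within C. The slope of Ret was 0.23 ± 0.06 (SE, adjusted p = 0.0052), with r of 0.47 and rho of 0.39 (permutation p = 0.0013 and 0.0078), and -0.73 within series F. Astrocyte scores moved with much of the transcriptome, since 11.5% of all genes were called rising and 13.5% falling. Against that background 2 rising of 8 is not a result about these genes as a set.

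The genes most like Ntrk2 were Plpp3 (r 0.69), Gja1 (0.68), the astrocyte gap junction protein connexin 43, Sdc4 (0.65), Nkain4 (0.63) and Kcnj16 (0.60). Gja1 was the 1 of the 9 astrocyte markers called with Ntrk2. Among all genes, 0.0533% rose and 0% fell with Ntrk2. On the astrocyte score, by contrast, 11.5% of all genes rose and 13.5% fell. Of the processing and adaptor genes, 4 of 14 rose with that score (Cpe, Plat, Frs2 and Maged1) and Plcg1, a phospholipase that Trk receptors recruit, fell. Gfra2 rose as well.

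Vgf fell as the score of 7 endothelial and mural markers rose, with a slope of -0.20 ± 0.05 (SE, limma adjusted p = 0.013), r of -0.49 (permutation p = 6.9e-04) and rho of -0.44 (permutation p = 0.0018). Among all genes 8.43% rose and 1.82% fell on this score. Its r was -0.75 within series E, -0.74 within F and -0.71 within D, but 0.12 within B. Without the 2 farthest libraries r was -0.35 and the call was lost (adjusted p = 0.80), as it was without the series term (slope -0.02, adjusted p = 0.85).

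Genes most like Vgf were Camk2n2 (r 0.68), an inhibitor of CaM kinase II, Ptms (0.66), Lmtk3 (0.65), Carmil2 (0.64) and Irx3 (0.63). The most negative were Slco1c1 (-0.67), a thyroid hormone transporter of brain vessels and astrocytes, and Pla2g7 (-0.67). Among all genes, 1.17% rose and 2.11% fell with Vgf. Of the 11 RMTg inhibitory markers, 3 rose with it, Gata3, Slc32a1 and Sox14. On the score of all 11 markers Vgf had a slope of 0.20 ± 0.05 (SE, adjusted p = 0.066), with r between 0.39 and 0.84 in the 5 series. That slope did not pass the threshold, and 0.00534% of all genes passed in each direction.

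Ntrk3 and Ngfr were called on none of the 10 scores. Ntrk3 had a slope of 0.08 ± 0.02 (SE, adjusted p = 0.083) on the RMTg inhibitory score. Genes most like Ntrk3 were Uggt2 (r 0.72), Nktr (0.71), Prpf38b (0.70), Herc2 (0.70) and Kmt2a (0.69), and the most negative were Ndp (-0.55) and Rhoa (-0.54). Among all genes 7.66% rose and 0.517% fell with Ntrk3, among them 2 rising sorting receptors, Sorcs1 and Sorcs3. No gene was called with Ngfr (0% in each direction), while 1232 of 18748 genes had an unadjusted p under 0.05 by limma and 0 to 2 were called over 10 alternatives. Its median count was 64.03, and its coefficient of variation was 49.2%, where counting error alone would give 11.7%. Ntf3 had a median count of 25, and 2.53% of all genes rose and 5.48% fell with it. Why no gene was called with Ngfr was not tested.

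Over the 80 relations of 8 genes to 10 scores, 7 were called: 4 on the dopaminergic, 2 on the astrocyte and 1 on the endothelial and mural score. The smallest adjusted p on the other scores was 0.066 for RMTg inhibitory, 0.072 for microglia, 0.086 for oligodendrocyte precursor, 0.26 for oligodendrocyte, 0.55 for immediate early, 0.57 for fibroblast and 0.74 for serotonergic markers. The share of all genes called rising and falling was 2.06% and 0.422% on the microglia score, 0.726% and 0.048% on the oligodendrocyte precursor score, and 0.00533% and 0% on the serotonergic score. On the fibroblast score no gene of the table was called by limma, and 1774 had an unadjusted p under 0.05. On the oligodendrocyte score, where 6.26% of all genes rose and 3.88% fell, Sort1, the proneurotrophin receptor sortilin, and Furin rose and Manf fell.

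**Figure D5:**
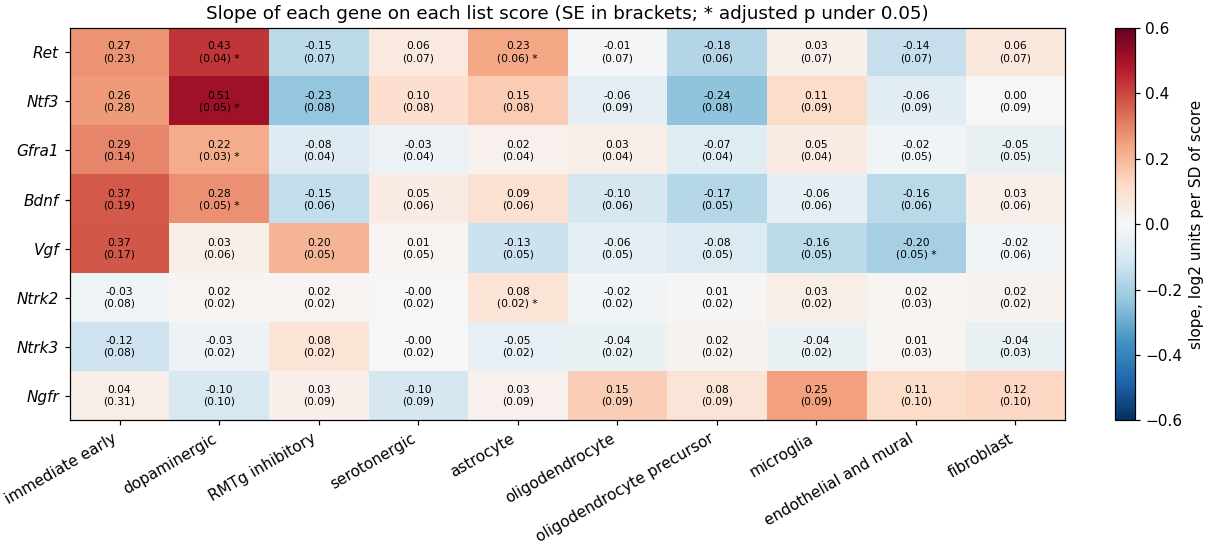
Slope of each gene (rows) on each list score (columns), in log2 units per SD of the score, with its SE in brackets and an asterisk at an adjusted p under 0.05; colour gives the slope, over 49 libraries with a series term. The 7 asterisks stand at the dopaminergic score for Ret, Ntf3, Gfra1 and Bdnf, at the astrocyte score for Ret and Ntrk2, and at the endothelial and mural score for Vgf.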

How the data were processed

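The values the authors deposited are on a log2 scale, for 38354 genes. The submitters' processing notes list kallisto 0.48, a transcript quantifier. The entries behave as log2(estimated count + 1): turned back to counts, 49.9% of those between 0 and 20 were whole to within 0.01. The genome build of the table is not given in the sources used here, nor is the way transcripts were summed to genes. Neither depth nor transcript length had been removed, so values were back-transformed and scaled to CPM by each library's total. A total is the depth of a library, and values of genes with few counts are less precise.

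Genes at 1 CPM or more in at least 20% of the 49 libraries were kept (18749). Fits used limma 3.58.1 in R 4.3.3 on log2(CPM + 1) with a mean trend and Benjamini-Hochberg adjustment over all genes, called at an adjusted p under 0.05. Slopes had identifier series as a covariate. A list score was the scaled mean z-score of members that passed, for lists with at least 3, and a list's own members were left out of its test. Correlations used Python 3.11.15 and SciPy 1.17.1, with two-sided permutations within series. Alternatives changed the scaling, the added constant, the filter, the libraries, the covariates (Xist and Ddx3y, the log10 total) and the score, and voom was tried. No 2 libraries were identical. The labels of 2 libraries note a corrected identifier, and these were kept under the same rule. Procedures were tested on simulated data.

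The genes and lists were chosen with earlier results of these data known. Named genes are the 8, those of the fixed lists and, for each of the 8, the 5 of highest and 2 of lowest r called with the same sign of r in all series of 6 or more libraries. Symbols that start LOC, RGD, AABR or ENSRNOG or end in Rik were passed over. Some genes that these rules pick are not reported here.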

Additional observations from a re-analysis of the deposited data

Results flagged for a closer look

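Series B library 7 stood apart from the 6 others of its series in 4 of the 8 genes. It had 113.5 CPM of Ret against 57.73 in the next library, 7.263 CPM of Ntf3 against 1.921, 32.19 CPM of Gfra1 against 20.66 and 18.58 CPM of Bdnf against 10.15. Each gap was beyond Dixon's 95% limit. The 24 groups tested were the 8 genes in series B, E and F, on CPM without a log, and 4 were flagged. All 4 flags come from 1 library and from genes that vary together. They are therefore not separate events, and their number is not set against the 1 group in 20 that chance flags. The same library had the highest Th and Slc6a3 of all 49 libraries.

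Signal was also present in the 32 libraries set aside because LOC120093067 and Zfp532 held 10% or more of their counts. Their totals were 2.29 to 13.7 M. Medians there, with every feature in the totals, were 3.312 CPM for Bdnf, 24.77 for Vgf, 255.1 for Ntrk2, 75.84 for Ntrk3, 1.572 for Ngfr, 21.28 for Ret and 6.517 for Gfra1. Ntf3 had a median count of 1 and was at 0 in 11 of the 32. In the 11 libraries set aside for Nif3l1, Bdnf was at 0 in all 11.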

How the results depend on the processing

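No paired analysis was possible because the labels give 1 group and no replicate numbers shared between groups. The slopes of Ret, Ntf3 and Gfra1 on the dopaminergic score kept their sign and call under all 14 alternatives (adjusted p of at most 0.0024), those of Ntrk2 on astrocyte markers under all 15, and the higher Vgf in series E and F under all 11. For Bdnf in E and F against D, the call was lost with no filter on low values (adjusted p = 0.087), with Xist and Ddx3y (0.21), with the log10 total (0.082) and with the dopaminergic score (0.27), which leaves 1 of the 8 genes called in each. With Xist and Ddx3y, 0 genes of the 8 differed over the series (Vgf adjusted p = 0.11). The slope of Bdnf on the dopaminergic score lost its call in the 32 libraries rich in LOC120093067 (adjusted p = 0.36) and that of Ret on astrocyte markers without the 5 libraries least correlated with the others (0.16).

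Without a series term, 2 genes were called on the immediate early score, Vgf and Bdnf. Scores of series E and F lay apart from the others, so that slope cannot be told apart from the difference between series. The number of all genes called on this score ran from 7 to 2765 over the alternatives, against 17. Of the pairs, 3 were called without the 2 farthest libraries and 1 with the dopaminergic score, where Ntf3 with Gfra1 (-0.056) and Ret with Gfra1 (-0.11) turned negative. On the RMTg inhibitory score 2 genes were called with dominant features left out of the totals and 2 with median-of-ratios size factors. Among all genes, 0.435% rose and 0.106% fell in the first of these settings, and 1.45% and 0.988% in the second. On the same score 5 were called without the 5 least correlated libraries, where 6.26% of all genes rose and 4.34% fell. With the dopaminergic score 1 was called. The number of all genes called on the RMTg inhibitory score ran from 0 to 6323 over the alternatives, against 2. On microglia 1 was called without those 5 libraries and 1 with the first principal component, which gave 3 on oligodendrocyte precursors. On endothelial and mural markers 0 were called with median-of-ratios factors, without those 5 libraries, without a series term and without the 2 farthest, and 2 without series B library 7. There the number of all genes called ran from 0 to 9079 over the alternatives, against 1921. The counts on these scores are not read as a result about the neurotrophic genes.

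In the 32 libraries rich in LOC120093067, 2 genes were called on RMTg inhibitory, 4 on oligodendrocyte, 4 on oligodendrocyte precursor, 3 on microglia, 3 on endothelial and mural and 3 on fibroblast markers. Over the alternatives, the number of all genes called on oligodendrocyte markers ran from 280 to 5240, against 1902. On fibroblast markers it ran from 0 to 7039, against 0, and the ranges of the other scores are given above. These counts too are not read as a result about the 8 genes. In the 32 libraries the slope of Vgf on endothelial and mural markers was 0.35 (adjusted p = 0.005) and r of Bdnf with Gfra1 was -0.23. There 6 pairs were called as well, but 0 of them among the 6 called in the 49 libraries. Causes of these changes were not tested. Over all 92 libraries, with every feature in the totals, mean levels were 255.9 CPM for Ntrk2, 92.2 for Ntrk3 and 12.3 for Gfra1. With dominant features left out of the totals, medians in the 32 libraries were 481.7 CPM for Ntrk2, 142.5 for Ntrk3 and 12.4 for Gfra1. The same medians in the 49 libraries were 300.8, 123.5 and 17.7 CPM. The number of all genes called on the dopaminergic score ran from 79 to 7477 over the alternatives, against 315. The dopaminergic covariate, the 32 libraries and the library left out were chosen after seeing the data. Without the filter, 0 of the 8 genes were called on the cholinergic score. Few counts limit Ntf3 and Ngfr.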

Other observations

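In the 32 libraries rich in LOC120093067 and Zfp532, with those features left out of the totals, 6 pairs were called, and 0 of them were among the 6 called in the 49. Ntrk2 and Ntrk3 had r of 0.88 (limma adjusted p = 1.9e-05), and Vgf and Gfra1 had r of 0.75 (adjusted p = 5.5e-05). Bdnf had r of 0.59 with Ntrk2 (adjusted p = 0.023) and 0.58 with Ntrk3 (adjusted p = 0.013), and Ngfr had r of 0.52 with Vgf (adjusted p = 0.045) and 0.51 with Gfra1 (adjusted p = 0.049). In the 49 libraries the first 2 of these pairs had r of -0.00087 and -0.05, and the others lay between -0.24 and -0.01. The 32 libraries also hold fewer counts. The difference between the kinds of library was not tested.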
